A study of Mus musculus with 3 samples.

Results

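The 7 enzyme genes of heme synthesis and the 2 adult globin genes considered here are Alas1, Alas2, Alad, Uros, Cpox, Ppox, Fech, Hba-a1 and Hbb-b2. Their probes were found by gene symbol in the platform annotation. The rule uses no measured value, but the genes were picked with earlier results of these data known. They are 9 of the genes behind 16281 probes. The symbols took 11 probes, and for all 11 RefSeq gives the same symbol under the Entrez number. Of these probes, 7 had a ratio on all 3 arrays, 1 (Alas1) had a ratio on array 2 only, and 3 (Hbb-b2 with both its probes, Hba-a1 with 1 of its pair) were listed at exactly 0 on every array. An exact 0 was read as no measurement, because probes of albumin, transthyretin and apolipoprotein A-I, which liver makes in abundance, were also listed at 0.

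Each array carried purchased total RNA of mouse spleen in the green dye, Cyanine-3, and of mouse liver in the red dye, Cyanine-5, both amplified once to labelled cRNA. The labels name 1 catalogue product per tissue and no strain, age, sex, treatment or number of animals, so the 3 arrays were taken as repeats of 1 pair of RNAs. SDs and p-values here therefore reflect differences between arrays alone, possibly technical ones, and not between animals. The dyes were never exchanged, so dye bias and tissue difference cannot be told apart for any probe.

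Heme is built in a pathway that starts in the mitochondrion, passes through the cytosol and ends in the mitochondrion. 5-aminolevulinate synthase makes the first intermediate and sets the pace. It exists as a housekeeping form, Alas1, which in liver supplies heme to cytochromes P450 and is repressed by heme, and as an erythroid form, Alas2, which supplies heme to hemoglobin in developing red cells and whose translation follows iron. In the adult mouse the spleen red pulp still makes red cells and also breaks old ones down, while liver makes heme mainly for its own enzymes.

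The values are log2 ratios of the 2 channels. The table does not state which tissue is the numerator, and the array titles name spleen first (Spleen vs Liver). Known markers nevertheless make liver over spleen the likely direction. The median of the measured hepatocyte markers was 4.98, 4.69 and 4.76 on arrays 1, 2 and 3, and that of B and T lymphocyte markers was -1.93, -1.82 and -1.45. Positive values below are therefore called toward liver and negative ones toward spleen. A probe passed the test at an adjusted p under 0.05 (limma, Benjamini-Hochberg over the 14122 probes measured on all arrays).

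The 2 synthase forms lay on opposite sides of 0 on the array where both were measured. Alas1 (probe 15908) had a ratio of 4.14 on array 2, 17.6-fold toward liver, and an exact 0 on arrays 1 and 3. Alas2 (probe 8351) read -1.42, -1.75 and -1.02 on arrays 1, 2 and 3. The Alas2 mean was -1.40 ± 0.37 (SD, n = 3), a 2.63-fold ratio toward spleen, and it passed the test (limma, adjusted p = 9.35e-04). All 3 arrays placed Alas2 toward spleen, with array 2 lowest and array 3 nearest to 0. Of all probes measured on every array, 4.89% had a lower mean than Alas2.

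On array 2 the Alas1 ratio exceeded the Alas2 ratio by 5.89 on the log2 scale, which makes the ratios differ 59.4-fold. This is a difference between tissue ratios, not between the levels of the 2 transcripts. It rests on 1 array, so it has no error and no test. If the exact 0s of Alas1 were measured ratios, the difference over the 3 arrays would be 2.78 ± 2.70 (SD, n = 3), and the mean of Alas1 would be 1.38 and would not pass the test (limma, adjusted p = 0.412).

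The Alas1 value from 1 array was set beside the other probes as a description. A ratio within 0.25 of the Alas1 value on array 2 was found for 52 probes measured on every array. The mean of arrays 1 and 3 for these probes lay between 2.55 and 4.53, with a median of 3.64. The mean of those 2 arrays was thus toward liver for all 52. These probes differ from Alas1 in having a ratio on all arrays. The arrays were also taken as repeats of the same RNAs, so a shared sign is little more than a repeat. The 52 probes therefore cannot show what Alas1 would have read on arrays 1 and 3. A further 168 probes were measured on array 2 only, against 28 on array 1 only and 60 on array 3 only. Among the 168, the quartiles were -0.43 and 0.33, and 6 probes, Alas1 included, were above 4. Albumin (Alb) at 6.16 and the antiprotease Serpina1b at 4.62 were also measured on array 2 alone, as were the lymphocyte gene Ms4a1 with 1 of its probes at -4.51 and the red-cell carbonic anhydrase Car1 at -1.32. These 4 were named after their values were seen, so they do not show how reliable a ratio from array 2 alone is.

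**Figure D1:**
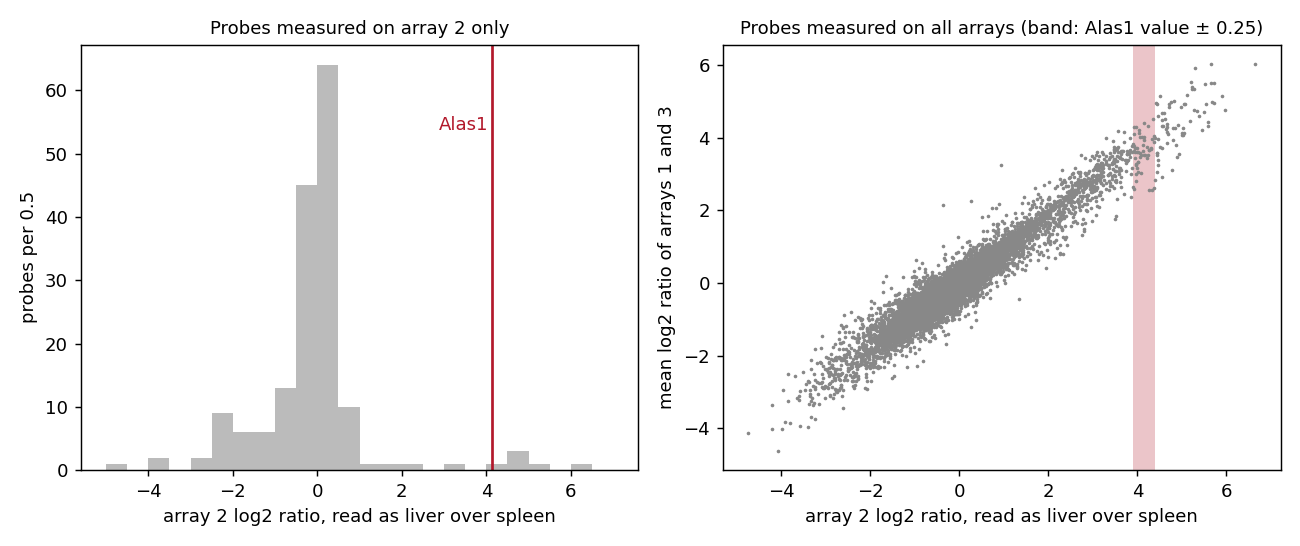
Left, array 2 log2 ratios of the 168 probes measured on array 2 only, as counts per 0.5, with the Alas1 value of 4.14 as a line; most of these probes lie near 0 and Alas1 lies in the sparse upper tail. Right, array 2 log2 ratio against the mean of arrays 1 and 3 for each of the 14122 probes measured on all arrays, with a band over the Alas1 value ± 0.25; the 52 probes in the band lie between 2.55 and 4.53 on the vertical axis.

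The sequences just before the starts of both synthase genes are shown because the forms had ratios of opposite sign on array 2. That contrast has no test, because Alas1 had no ratio on the other arrays. The sequences before Uros and Ppox are shown because these genes passed the test in the direction of Alas2. All these sequences come from RefSeq (GRCm38.p6), 250 bases up to the base before the annotated start, read 5′ to 3′ on the gene's strand. Capitals mark matches on either strand to 3 motifs. The GATA motif was searched as AGATAA or TGATAA. The box bound by Klf1-like factors was searched as CACCC, and letters from the core of the NRF1 motif as CATGCGC. No match overlapped one of another motif.

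Alas1 start 1, chr9:106247955-106248204, minus strand: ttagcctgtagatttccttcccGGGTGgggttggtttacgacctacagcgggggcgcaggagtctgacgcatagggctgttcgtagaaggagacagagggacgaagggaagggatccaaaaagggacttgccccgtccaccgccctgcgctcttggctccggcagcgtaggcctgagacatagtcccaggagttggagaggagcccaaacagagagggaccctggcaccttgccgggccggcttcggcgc
Alas1 start 2, chr9:106247731-106247980, minus strand: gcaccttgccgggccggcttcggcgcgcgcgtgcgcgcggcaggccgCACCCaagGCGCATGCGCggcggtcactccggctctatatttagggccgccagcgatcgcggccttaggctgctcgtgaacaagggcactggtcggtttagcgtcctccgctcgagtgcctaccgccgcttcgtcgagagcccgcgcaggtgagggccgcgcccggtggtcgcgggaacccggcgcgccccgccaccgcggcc
Alas2, chrX:150547167-150547416, plus strand: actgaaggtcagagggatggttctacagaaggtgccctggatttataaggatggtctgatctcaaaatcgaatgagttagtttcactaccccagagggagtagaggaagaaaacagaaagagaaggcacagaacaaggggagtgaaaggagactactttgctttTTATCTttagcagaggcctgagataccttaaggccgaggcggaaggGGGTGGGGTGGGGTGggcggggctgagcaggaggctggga
Uros start 1, chr7:133709296-133709545, minus strand: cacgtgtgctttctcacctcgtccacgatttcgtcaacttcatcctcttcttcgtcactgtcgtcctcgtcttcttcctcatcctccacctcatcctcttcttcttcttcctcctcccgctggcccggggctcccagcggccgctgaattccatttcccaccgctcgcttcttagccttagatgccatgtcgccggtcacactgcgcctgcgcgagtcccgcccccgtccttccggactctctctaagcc
Uros start 2, chr7:133702501-133702750, minus strand: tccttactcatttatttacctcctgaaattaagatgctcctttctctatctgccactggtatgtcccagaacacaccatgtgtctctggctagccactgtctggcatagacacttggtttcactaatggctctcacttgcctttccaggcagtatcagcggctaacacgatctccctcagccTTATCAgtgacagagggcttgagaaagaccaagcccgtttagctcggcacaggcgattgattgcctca
Ppox, chr1:171281187-171281436, minus strand: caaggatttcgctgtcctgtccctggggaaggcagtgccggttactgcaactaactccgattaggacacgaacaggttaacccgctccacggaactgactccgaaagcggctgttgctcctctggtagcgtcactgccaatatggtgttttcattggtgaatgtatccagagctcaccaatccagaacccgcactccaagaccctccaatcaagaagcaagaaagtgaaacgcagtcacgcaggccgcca

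The Alas2 window held 1 GATA match and 3 CACCC matches, all 3 on the reverse strand in 1 run. Neither Alas1 window held a GATA match, each held 1 CACCC match, and the window of start 2 held 2 overlapping matches to the NRF1 letters, 1 on each strand. Uros had no match before start 1 and 1 GATA match before start 2, and Ppox had none. Uros is known to have an erythroid start inside the gene as well as a housekeeping start. Whether start 2 is the erythroid one, and which start the Uros probe reports, was not tested. Neither Alad window held a GATA match. Windows were at hand for 7 of the 9 genes, 10 windows in all, of which 4 held a GATA match, 6 a CACCC match and 1 the NRF1 letters. The windows of the 2 starts of Alas1, and those of Alad, overlap. The other GATA matches were before Cpox and Hba-a1. Of 32851 windows of the same length in the table, 16.6% held a GATA match, 52% a CACCC match and 3.24% the NRF1 letters. These matches describe letters and are not shown to be bound sites. Windows of Fech and Hbb-b2 were not used here.

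Of the 7 probes measured on all arrays, 3 passed the test toward spleen and 1 toward liver, where 26.7% and 23.5% of all probes passed in these directions and 50.2% in either. At 2-fold or more, Alas2 was the 1 probe that passed, beside 9.13% of all probes toward spleen and 8.85% toward liver. The 7 means had a median of -0.52, against 0.02 over all 14122 probes. With 7 probes these counts describe the genes and do not set them apart from the rest.

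**Figure D2:**
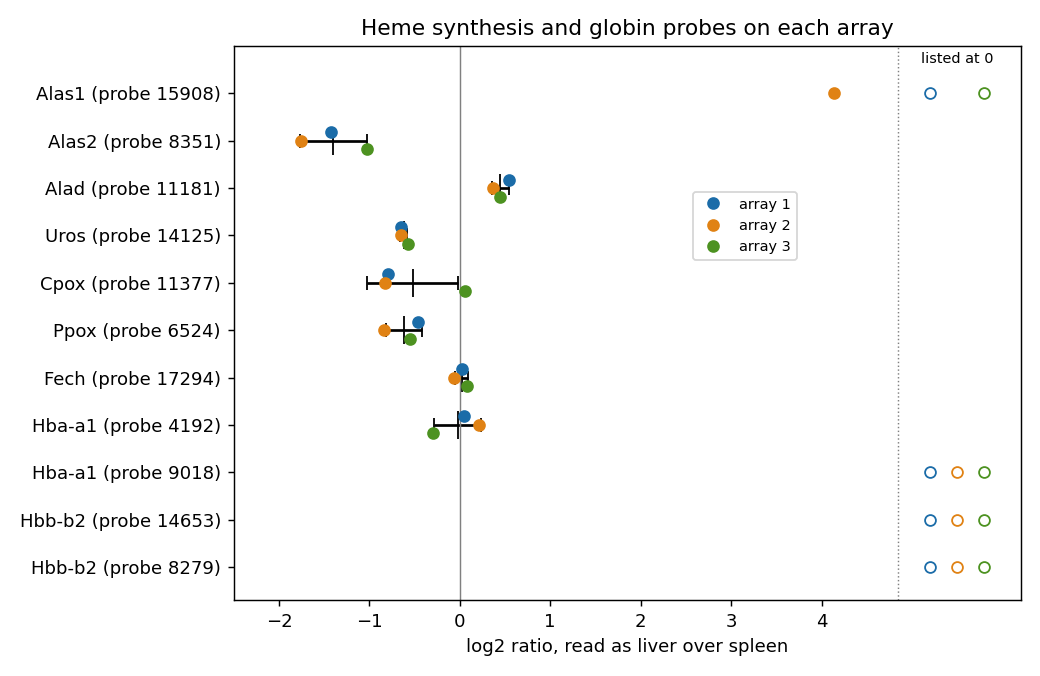
Log2 ratio on each array (filled points) for the 11 probes of the 9 genes, with the mean (tall tick) and SD (bar) over 3 arrays where all were measured; open points at the right mark arrays on which a probe is listed at 0. Alas1 stands at 4.14 from array 2 alone, Alas2 is lowest on every array, and 3 globin probes have no ratio.

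In the cytosolic steps, the measured enzymes went different ways. Alad joins 2 molecules of 5-aminolevulinate to porphobilinogen. Its probe read 0.54, 0.37 and 0.45, with a mean of 0.45 ± 0.09 (SD, n = 3), a 1.37-fold ratio toward liver (limma, adjusted p = 0.00710). Uros, which closes the ring to uroporphyrinogen III, read -0.65, -0.65 and -0.57. Its mean was -0.62 ± 0.04 (SD, n = 3), a 1.54-fold ratio toward spleen (limma, adjusted p = 0.00170). The 3 arrays of each gene stood on 1 side of 0, and 7.04% of all probes had a smaller SD than Uros. Within each array Alad exceeded Uros, by 1.19, 1.02 and 1.02.

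The last mitochondrial steps ranged from a ratio toward spleen to none detected. Ppox, which oxidises protoporphyrinogen to protoporphyrin, read -0.46, -0.84 and -0.55. Its mean was -0.62 ± 0.20 (SD, n = 3), a 1.53-fold ratio toward spleen (limma, adjusted p = 0.00519). All its arrays were below 0, array 2 the lowest.

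Cpox, which makes the substrate of Ppox, read -0.79, -0.83 and 0.06. Arrays 1 and 2 stood together toward spleen and array 3 stood apart at 0.06. The mean of -0.52 ± 0.50 (SD, n = 3) did not pass the test (limma, adjusted p = 0.0731, 95% interval -1.01 to -0.03 before adjustment). Without array 3 the mean was -0.81 and passed (limma, adjusted p = 0.00355). Of all probes, 4.52% had a larger SD than Cpox.

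Fech, which inserts iron into protoporphyrin, read 0.03, -0.06 and 0.08. Its mean of 0.02 ± 0.07 (SD, n = 3) did not pass the test (limma, adjusted p = 0.865), and its 95% interval ran from -0.19 to 0.22. The arrays lay on both sides of 0, and the sign of the mean turned without array 3, at -0.01.

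In order of their means from liver to spleen, the enzymes measured on all arrays were Alad, Fech, Cpox, Ppox, Uros and Alas2. Alad exceeded Fech on all 3 arrays, by 0.44 ± 0.07 (SD, n = 3), and Uros exceeded Alas2 on all 3, by 0.77 ± 0.33. Fech exceeded Cpox on all 3 arrays by 0.54 ± 0.45, but by 0.02 on array 3. Cpox and Ppox differed by 0.10 ± 0.47 and Ppox and Uros by 0.01 ± 0.19, less than their spread and with arrays of both signs. Alas2 was thus the enzyme furthest toward spleen on every array. These are differences of ratios within an array. An exact sign-flip permutation test over 3 arrays cannot give a two-sided p below 0.25, so none is given.

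**Figure D3:**
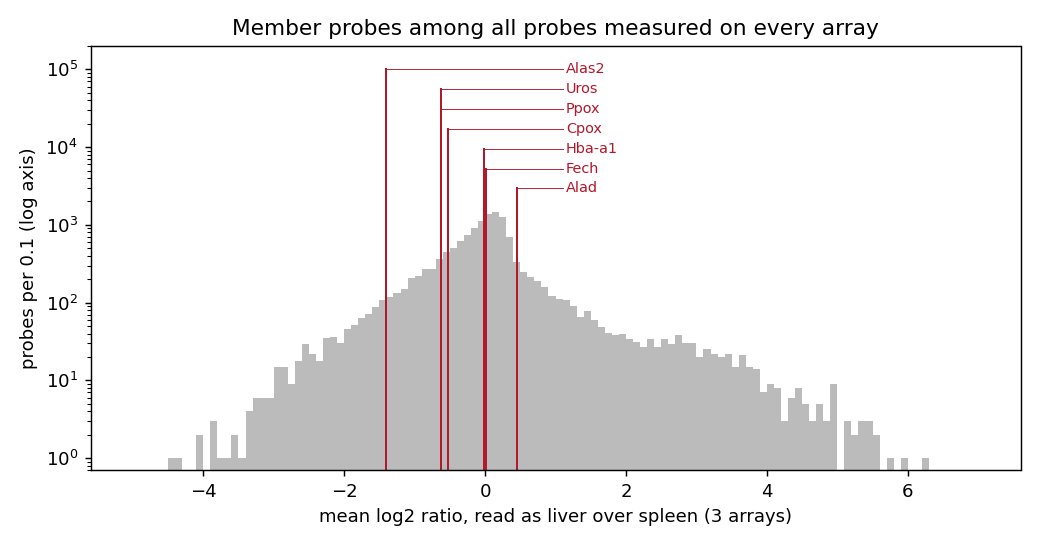
Counts of the 14122 probes measured on every array by mean log2 ratio (log axis, 0.1 wide), with the 7 measured probes of the genes as red lines named at the right. Alas2 at -1.40 lies in the lower tail, Uros, Ppox and Cpox lie between -0.62 and -0.52, and Hba-a1, Fech and Alad lie between -0.02 and 0.45.

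The adult globins gave almost no usable ratio. Hba-a1 encodes an alpha chain and Hbb-b2 a beta chain of adult hemoglobin, whose transcripts fill maturing red cells. Hba-a1 probe 4192 read 0.05, 0.21 and -0.30, with a mean of -0.02 ± 0.26 (SD, n = 3) that did not pass the test (limma, adjusted p = 0.918, 95% interval -0.32 to 0.29). Its arrays lay on both sides of 0. Hba-a1 probe 9018 and Hbb-b2 probes 14653 and 8279 were listed at 0 on every array, as were 3.79% of all probes in the table. The channel intensities were not used here, so saturation, low signal and removal by the authors cannot be told apart for these probes.

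Among other globins, 6 of 14 listed genes had a probe, and of 5 measured on all arrays 2 passed toward spleen and 1 toward liver. Over genes, 29.3% of 9803 had at least 1 probe past the test toward spleen and 26.8% toward liver. Hbb-y, the embryonic beta-like chain, read -2.18, -0.95 and -2.36, a mean of -1.83 ± 0.77 (SD, n = 3; limma, adjusted p = 0.00363). All arrays placed Hbb-y toward spleen, with array 2 nearest to 0. The embryonic genes Hbb-bh1 and Hba-x did not pass. Cytoglobin (Cygb), an oxygen-binding protein of fibroblast-like cells, averaged -0.61 ± 0.16. Myoglobin (Mb), the oxygen store of muscle, averaged 2.58 ± 0.51 on 1 probe and -0.08 ± 0.07 on the other.

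Outside the lists, and named after their values were seen, the alpha globin pseudogene Hba-ps3 had a ratio of -3.75 on array 2 and an exact 0 on arrays 1 and 3. The beta-like Hbb-bh0 had ratios of -0.83 and -0.76 on arrays 1 and 3 and an exact 0 on array 2. Globin genes and pseudogenes are near-identical in places, so their probes may share signal, which was not resolved here.

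Markers of red-cell precursors lay toward spleen in the same RNAs. Of 17 erythroid genes measured on all arrays, 14 passed toward spleen and 1, Rhag, toward liver, where 29.3% and 26.8% of all genes did. The median over their probes was -1.53. Alas2 lay amid them: 12 of their 23 probes had a lower mean and 11 a higher one. Slc4a1, the red-cell anion exchanger, averaged -2.94 ± 0.27 on 1 probe and -0.37 ± 0.30 on the other, which passed without array 2 at -0.52 but not with all arrays. Ank1 averaged -2.28 ± 0.46 on 1 probe and -0.03 ± 0.10 on the other, which did not pass. Epb42, at 0.17 ± 0.12, and the Sptb probe measured on all arrays, at 0.27 ± 0.12, did not pass. A further Sptb probe averaged -1.20 ± 0.67 on 2 arrays. Gata1, Klf1, Tal1 and Tfrc of this list are also counted in the lists below. In these bulk RNAs more cells of a type and more RNA per cell cannot be told apart, and the part of erythroid cells in the ratios of Alas2, Uros and Ppox was not tested. The 4 hepatocyte markers measured on all arrays passed toward liver, between 3.76 and 4.97, and Apoa1, Apoh and Ttr were listed at 0 throughout. Of 7 macrophage marker genes 5 passed toward spleen and 1 toward liver, beside the same shares of all genes. Their median over probes was -1.36, but the list pools markers of red pulp and Kupffer macrophages. Hmox1 of this list is also counted among the genes of heme breakdown below. The gene toward liver was Clec4f, at 3.18 ± 0.32 on 1 probe and 0.05 ± 0.11 on the other, which did not pass. Adgre1, at -0.36 ± 0.24, passed toward spleen but not without array 1 (-0.30) or array 2 (-0.28).

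The genes around the pathway were taken from 6 lists, with 48 genes measured on all arrays. Of these, 25 passed toward liver and 15 toward spleen on at least 1 probe, where 26.8% and 29.3% of all genes did. The count toward spleen is near the share of all genes.

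Of 7 measured genes that serve heme synthesis in mitochondria, 4 passed toward liver and 2 toward spleen, where 26.8% and 29.3% of all genes did. The count toward spleen is at the share of all genes. Slc25a37 (mitoferrin 1), the mitochondrial iron importer of red-cell precursors, read -1.55, -1.78 and -1.17, a mean of -1.50 ± 0.31. All arrays stood toward spleen, near those of Alas2, though probes of Osmr and Lig1 lay closer to Alas2. Abcb10, a transporter that works with mitoferrin 1, averaged -0.65 ± 0.25. On the liver side Abcb6, a porphyrin transporter, averaged 1.57 ± 0.05 and Slc25a39, a mitochondrial glutathione carrier, 1.48 ± 0.01. Clpx, the unfoldase that acts on 5-aminolevulinate synthase, averaged 1.44 ± 0.08. Pgrmc1, a heme-binding partner of P450 enzymes and ferrochelatase, averaged 3.48 ± 0.11 on 1 probe and 0.28 ± 0.06 on the other, both past the test. The lower Pgrmc1 probe did not pass without any 1 of the arrays, at 0.26, 0.26 and 0.31.

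Of 10 regulators of the 2 synthases, 4 passed toward liver and 4 toward spleen, where 26.8% and 29.3% of all genes did. With 10 genes these counts do not set the list apart. The drug-sensing nuclear receptors Nr1i2 (PXR) and Nr1i3 (CAR), which induce Alas1 in liver, averaged 2.39 ± 0.23 and 1.99 ± 0.17. Ppargc1a, a fasting coactivator of Alas1, averaged 1.21 ± 0.20, while Nrf1, the respiratory factor whose motif letters were searched above, averaged -0.53 ± 0.22. The erythroid factors Klf1, which binds CACCC boxes, and Tal1 averaged -3.04 ± 0.24 and -2.03 ± 0.04. Gata1, which drives Alas2, read -0.36, -1.02 and -0.34, a mean of -0.57 ± 0.39 that passed (limma, adjusted p = 0.0298). Array 2 was lowest for Gata1. The erythroid factor Nfe2 at -0.05 ± 0.12 and the heme-sensing repressor Bach1 at 0.05 ± 0.08 did not pass. Without array 2, Gata1 at -0.35 and Nrf1 at -0.43 did not pass (limma, adjusted p = 0.0635 and 0.0587), which left 2 regulators past the test toward spleen.

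Of 8 genes of heme breakdown, scavenging and export, 5 passed toward liver and 3 toward spleen, where 26.8% and 29.3% of all genes did. With a 2-fold limit, 2 passed toward liver and 2 toward spleen. Hmox1, the inducible heme oxygenase, read -1.48, -1.44 and -1.38, a mean of -1.44 ± 0.05, and Hmox2, the constitutive form, averaged 0.52 ± 0.06. The inducible form was thus toward spleen and the constitutive form toward liver on every array. Blvra, which reduces biliverdin to bilirubin, averaged -0.89 ± 0.10 and -0.66 ± 0.02 on its probes. Cd163, the hemoglobin scavenger receptor of macrophages, averaged -1.49 ± 0.19. The plasma carriers of hemoglobin and heme, haptoglobin (Hp) and hemopexin (Hpx), averaged 3.62 ± 0.11 and 2.67 ± 0.03. A further Hpx probe averaged -0.29 ± 0.19 and did not pass, except without array 2 at -0.40, and a further Hp probe was listed at 0 on every array.

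Of 8 genes of iron handling measured on all arrays, 5 passed toward liver and 1 toward spleen, beside the same shares of all genes. Transferrin (Trf), ceruloplasmin (Cp) and hepcidin (Hamp), which liver secretes, averaged 3.90 ± 0.20, 3.00 ± 0.19 and 2.69 ± 0.15. Tfr2, a transferrin receptor found on hepatocytes though not on them alone, averaged 2.59 ± 0.05 and 1.75 ± 0.06 on its probes. Tfrc, the uptake receptor abundant on red-cell precursors, averaged -0.48 ± 0.19 on the probe that passed and -0.31 ± 0.25 on the other. Without array 1 the first Tfrc probe averaged -0.47 and did not pass (limma, adjusted p = 0.0515), and without array 3 the second averaged -0.46 and passed (limma, adjusted p = 0.0219). The iron exporter Slc40a1 had ratios of -1.31 and -1.32 on arrays 1 and 3 and an exact 0 on array 2, and it passed where arrays 1 and 3 alone were tested. The ferritin chains were incomplete too: Fth1 read 0.73 and 0.60 on arrays 2 and 3, and Ftl1 1.31 and 1.31 on arrays 1 and 2. When probes measured on 2 arrays were admitted, 7 genes of iron handling passed toward liver in place of 5. Toward spleen 2 passed in place of 1.

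The list of heme-using enzymes outside the P450 family had 10 measured genes, of which 6 passed toward liver and 3 toward spleen, where 26.8% and 29.3% of all genes did. It holds Sqor, a mitochondrial sulfide oxidase that carries flavin and no heme. Without Sqor, 5 of 9 passed toward liver and 3 toward spleen, and over the 6 lists 24 of 47 and 15. Tryptophan dioxygenase (Tdo2) averaged 3.84 ± 0.10, catalase (Cat) 3.52 ± 0.09 and the respiratory chain subunit Sdhc 1.60 ± 0.26. Sqor averaged 2.76 ± 0.23 on its highest probe measured on all arrays. The members toward spleen were Cyba and Cybb, the oxidase chains of phagocytes, at -1.37 ± 0.31 and -0.57 ± 0.37, and myeloperoxidase (Mpo) at -1.04 ± 0.36 and -0.43 ± 0.33 on its probes. Cybb did not pass without array 1 (-0.52) or array 2 (-0.41), nor did the lower Mpo probe without array 1 (-0.25), array 2 (-0.52) or array 3 (-0.54). Cyb5a was listed at 0 on every array.

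**Figure D4:**
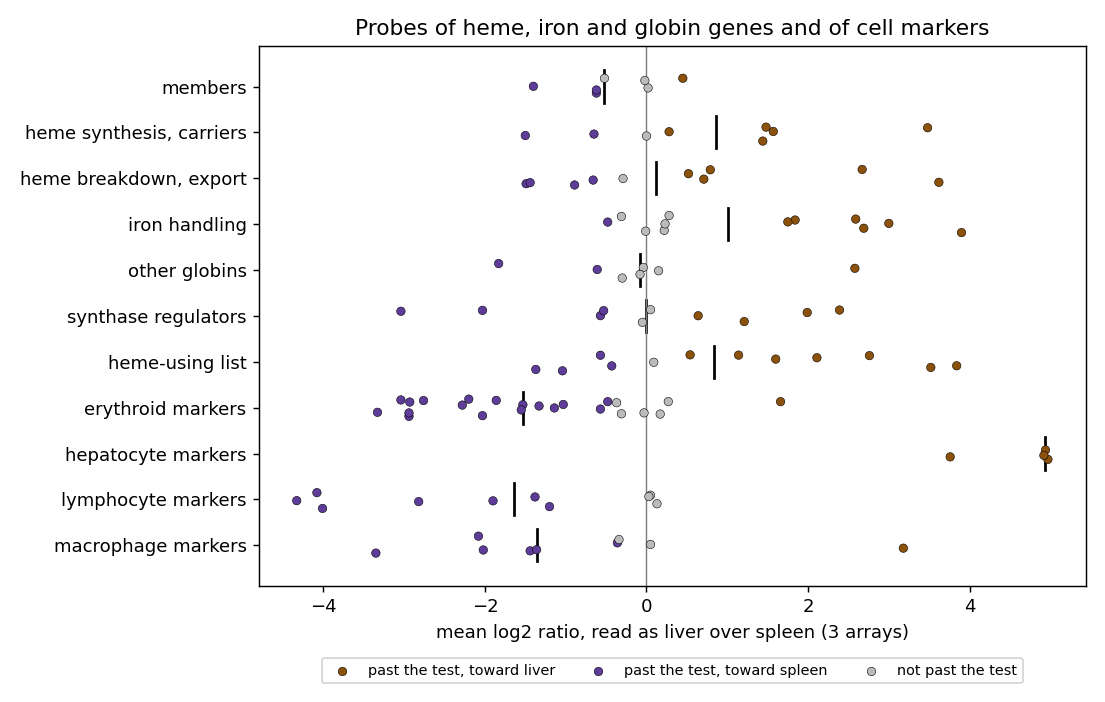
Mean log2 ratio over 3 arrays of each probe measured on all arrays, by gene list; brown and purple points passed limma's test toward liver and spleen, grey points did not, vertical bars are list medians, and the spread of points within a row has no meaning. The measured probes of the 9 genes centre on -0.52, the erythroid markers on -1.53 and the hepatocyte markers on 4.93.

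Of the 9 genes, 7 have 1 probe each, so their values are those of a probe. Of 2236 genes with 2 or more probes measured on all arrays, the probes' means spanned a median of 0.33, and for 15.4% of these genes they spanned 1 or more. The probes closest to Alas2 over the 3 arrays were those of Osmr and Lig1, at Euclidean distances of 0.11 and 0.12, and those closest to Uros were of Nmi and Nifk, at 0.03 and 0.04. Suv39h2 and Cbr2 lay closest to Ppox, Mastl and Arrdc1 to Cpox, Atp5l and BC003965 to Alad, Atf3 and Sdf2 to Fech, and Tnfaip3 and Slc12a1 to Hba-a1. With 3 arrays of 1 comparison, this likeness says that the ratios are alike and nothing more.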

How the data were processed

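The deposited table gives 1 log2 ratio of the channels for each of 16281 probes on each of 3 arrays. How the authors corrected background, normalized dyes or filtered spots is not given in the sources used here. The log base was taken from the highest value, 6.64, the log2 of 100. Exact 0 was taken as no measurement. Array precision is limited by the number of arrays. Probes were named from the platform annotation.

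The 14122 probes measured on all arrays entered 1 fit with limma 3.58.1 (R 4.3.3), which compared each mean with 0 (intercept only, 3.38 prior degrees of freedom, two-sided, Benjamini-Hochberg). The test was also run on simulated data with known shifts in a small share of probes, with spreads drawn from the real probes. In the real data 50.2% of probes passed, and the simulated data held no dye bias. That run therefore does not give the error rate of the calls here. The members and lists were chosen with earlier results of these data known, and p-values adjusted over the lists alone are not given. All member probes are named. From each list of surrounding genes, the 4 largest past the test and any gene listed at 0 throughout are named by rule. Abcb10, Clpx, Ppargc1a, Nrf1, Gata1, Nfe2, Bach1, Hmox2, Blvra, Tfrc, Slc40a1, Fth1, Ftl1, Cyba, Cybb, Mpo, Rhag, Slc4a1, Hbb-bh1 and Hba-x were named after their values were seen. So were Clec4f, Adgre1, Ank1, Epb42 and Sptb. Sqor was left out of its list in an alternative added after the data were seen. Other alternatives left out each array, centred arrays, kept exact 0s, admitted probes measured on 2 arrays, averaged probes per gene, used a robust variance prior, or added a 2-fold limit.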

Additional observations from a re-analysis of the deposited data

How the results depend on the processing

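Alas2, Uros and Ppox stayed past the test toward spleen, and Alad toward liver, under all 8 alternative fits, with means from -1.59 to -1.22, -0.65 to -0.61, -0.69 to -0.51 and 0.41 to 0.50 (limma, adjusted p up to 0.0194, 0.0147, 0.0296 and 0.0445). Cpox passed without array 3 (-0.81) and in no other of these fits. Leaving out 1 array at a time, Fech lay from -0.01 to 0.06 and Hba-a1 from -0.13 to 0.13, neither past the test. Fech changed sign without array 3 (-0.01) and with arrays centred (0.00), and Hba-a1 without array 3 (0.13). With a 2-fold limit, 0 member probes passed toward liver and 1 toward spleen. Of the surrounding lists, 8 in place of 15 genes passed toward spleen and 20 in place of 25 toward liver. With exact 0s kept, Alas1 exceeded Alas2 by 2.78 in place of 5.89; the alternative itself puts Alas1 at 0 on 2 arrays. Without array 2 that difference has no value. Each ratio already compared liver with spleen RNA within 1 array, and all arrays form 1 group, so no further pairing was made. Signal over background was not used here.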
